A study of Mus musculus with 2 samples.

Results

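The miR-148 and miR-152 family of mouse comprises 3 loci, Mir148a, Mir148b and Mir152, taken by gene symbol from the 1973 miRNA genes listed in each library, and all 3 were counted in both libraries. The tissue was whole stomach of B6NCrl embryos at embryonic day 15.5, of mixed sex, with no treatment and no engineered allele in the labels. Total RNA below 30 nt was sequenced from 2 pools, replicate 2 from 62 embryos and replicate 1 from 78 embryos. Both belong to 1 group, so the comparisons were made among the 3 loci, with related miRNA genes, and from pool to pool.

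miRNAs are short RNAs that guide Argonaute proteins to messenger RNAs, chiefly through the seed, bases 2 to 8 from the 5′ end, and lower the output of the messages they bind. Genes with a common seed form a family that can act on overlapping targets. miR-148a, miR-148b and miR-152 are known for repressing the DNA methyltransferase Dnmt1. miR-148a is also known from adult mouse stomach, where it is a miRNA of the enzyme-secreting chief cells, and from adult liver, where it lowers the LDL receptor.

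The 3p arms, the arms by which the family is defined, carried one and the same seed. They are shown with the seed in capitals (RefSeq, GRCm38.p6), because the letters after the seed are what let reads of the 3 loci be told apart:
miR-148a-3p: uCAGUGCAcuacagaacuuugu
miR-148b-3p: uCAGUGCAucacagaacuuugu
miR-152-3p: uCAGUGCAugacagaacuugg
Counted from base 1 at the 5′ end, miR-148a-3p and miR-148b-3p differed at 2 places, C9U and U10C, the miR-148a base given first. miR-148a-3p and miR-152-3p differed at 3 of the 21 bases they have in common, C9U, U10G and U20G. miR-152-3p and miR-148b-3p differed at 2, G10C and G20U. The longest run of identical bases was 12 between miR-148a-3p and miR-148b-3p and 9 in each pair with miR-152-3p.

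The 5p arms come from the other side of the hairpin and are shown with their bases 2 to 8 in capitals, since here the family divides:
miR-148a-5p: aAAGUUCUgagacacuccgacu
miR-148b-5p: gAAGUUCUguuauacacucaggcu
miR-152-5p: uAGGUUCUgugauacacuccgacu
miR-148a-5p and miR-148b-5p had the same seed, and they were the 2 mature miRNAs with it among 1738 in the RefSeq table. miR-152-5p differed from that seed by A3G and had its own seed to itself. The deposited tables give 1 count per gene, so reads of the 2 arms were not separated and every level below is that of a whole hairpin.

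The hairpins are shown with the 3p arm in capitals, to place that arm within each precursor. Mir148a lies at chr6:51269812-51269910 on the minus strand, Mir148b at chr15:103285125-103285221 on the plus strand and Mir152 at chr11:96850393-96850465 on the plus strand (GRCm38, GENCODE M21):
Mir148a: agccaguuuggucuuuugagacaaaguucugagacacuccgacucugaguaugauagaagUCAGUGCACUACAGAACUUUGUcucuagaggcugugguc
Mir148b: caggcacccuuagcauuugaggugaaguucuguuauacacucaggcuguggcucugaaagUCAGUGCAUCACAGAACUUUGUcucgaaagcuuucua
Mir152: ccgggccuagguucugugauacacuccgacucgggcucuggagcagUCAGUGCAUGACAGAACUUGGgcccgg
RNAfold gave the minimum free energy fold of each whole hairpin. In it 19 of the 22 bases of miR-148a-3p were paired, 17 of 22 of miR-148b-3p and 19 of 21 of miR-152-3p. Its energy was -41 kcal/mol for Mir148a (99 bases), -30.9 kcal/mol for Mir148b (97 bases) and -43.5 kcal/mol for Mir152 (73 bases). Mir148a and Mir148b came in the reverse order for the stretch from the first base of the 5p arm to the last of the 3p arm. Folded on its own, that stretch had -17.5 kcal/mol for Mir148a, -18.7 kcal/mol for Mir148b and -22.7 kcal/mol for Mir152. Mir152 had the highest GC content over that stretch, 53.3%, against 44.1% for Mir148b and 41.7% for Mir148a.

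The loci differ in where they lie. Mir148b was within intron 1 of Copz1 in 4 of 4 annotated transcripts, and Mir152 within intron 1 of Copz2 in the 3 of 5 transcripts that span it. Both were on the strand of the host and overlapped none of its exons. Copz1 and Copz2 are paralogs that encode zeta subunits of the COPI coat, which carries cargo between Golgi and endoplasmic reticulum. The introns differed in size, 16159 bases in Copz1 and 676 bases in Copz2, while the exon 2 that follows was 69 bases long in the main transcript of each. Mir148a overlapped no other annotated gene. Its nearest neighbour was the long non-coding RNA gene Gm32479, 13622 bases away on the same strand, and the nearest protein-coding gene was Nfe2l3 at 162760 bases. No other listed miRNA gene lay within 50 kb of any of the 3. The tables count miRNA genes alone, so the host transcripts were not analysed here.

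**Figure D1:**
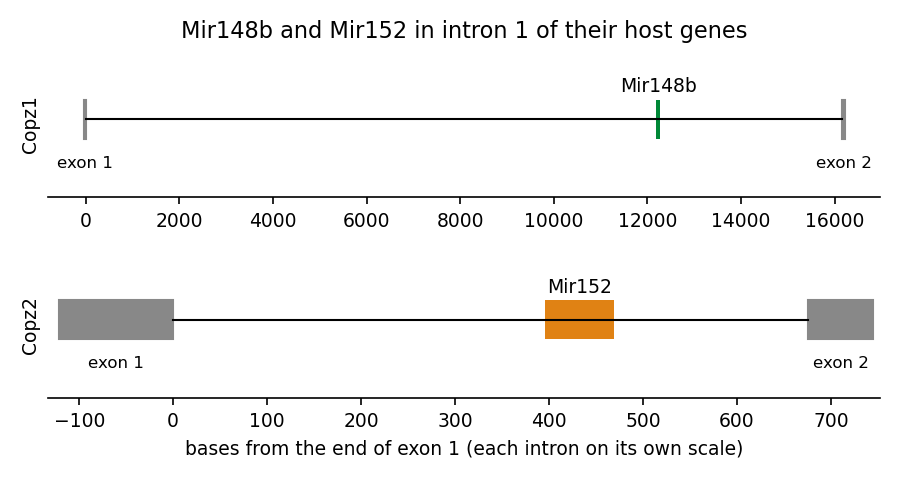
Position of Mir148b (top) and Mir152 (bottom) in intron 1 of Copz1 and Copz2, in bases from the end of exon 1, drawn to scale from the first protein-coding transcript of each; grey boxes are exons. Mir148b starts 12183 bases into an intron of 16159 bases, and Mir152 starts 396 bases into an intron of 676 bases.

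The libraries held 6675498 sense miRNA gene counts (replicate 2) and 5988677 (replicate 1), over which CPM, counts per 1000000, were taken. The limit that a count of 0 allows was 0.449 CPM in replicate 2, against 0.501 CPM in replicate 1. Markers of stomach wall and lining were abundant. Mir143 and Mir145a of smooth muscle averaged 178424 ± 4131 CPM and 2487 ± 613 CPM, Mir126a of endothelium 25628 ± 830 CPM (SD, n = 2), and the 5 miR-200 family genes of epithelium summed to 43188 CPM in replicate 2 and 43502 CPM in replicate 1. Mir203 and Mir205, of stratified epithelium such as the forestomach lining, summed to 11806 CPM in replicate 2 and 17201 CPM in replicate 1. The 3 acinar pancreas genes Mir216a, Mir216b and Mir217 had 25 counts in replicate 2 and 35 in replicate 1 in all. Of the 6 neuronal genes 5 were listed, Mir124a-1, Mir124a-2, Mir124a-3, Mir9-2 and Mir9-3. Mir9-3 held all their sense counts, 18 in replicate 2 and 19 in replicate 1. These genes are numbered copies, and reads matching several places, 27.0% in replicate 2 and 25.5% in replicate 1, were assigned to no gene. What such reads would add to the neuronal genes was not tested, so their counts do not show absence.

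Mir148a was the leading locus of the family and was counted at nearly the same level in both pools. It had 6665 counts in replicate 2 and 6194 in replicate 1. That was 998 CPM (95% Wilson interval 975 to 1023) against 1034 CPM (1009 to 1060), a mean of 1016 ± 25.4 CPM (SD, n = 2). It ranked 95th of all listed genes in replicate 2 and 98th in replicate 1, and 79.0% of the 466 genes with at least 10 summed counts had a lower mean. Intervals here and below cover counting error only, not the spread between pools. They take reads as independent. Amplified reads are not independent molecules, so the intervals may be too narrow even for counting error.

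Mir148b and Mir152, the loci within coatomer genes, were both counted at a much lower level. Mir152 had 990 counts in replicate 2 and 1045 in replicate 1, which is 148 CPM in replicate 2 (139 to 158) and 174 CPM in replicate 1 (164 to 185), with a mean of 161 ± 18.5 CPM (SD, n = 2). Mir148b had 893 counts in replicate 2 and 1020 in replicate 1, which is 134 CPM in replicate 2 (125 to 143) and 170 CPM in replicate 1 (160 to 181), with a mean of 152 ± 25.8 CPM. Both therefore stood above the median of the 466 genes, 45.1 CPM, with 63.3% of them below Mir152 and 62.2% below Mir148b. In rank, Mir152 was 172nd in replicate 2 and 169th in replicate 1, and Mir148b was 175th in replicate 2 and 174th in replicate 1. Mir152 came before Mir148b in each library, by a few ranks.

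**Figure D2:**
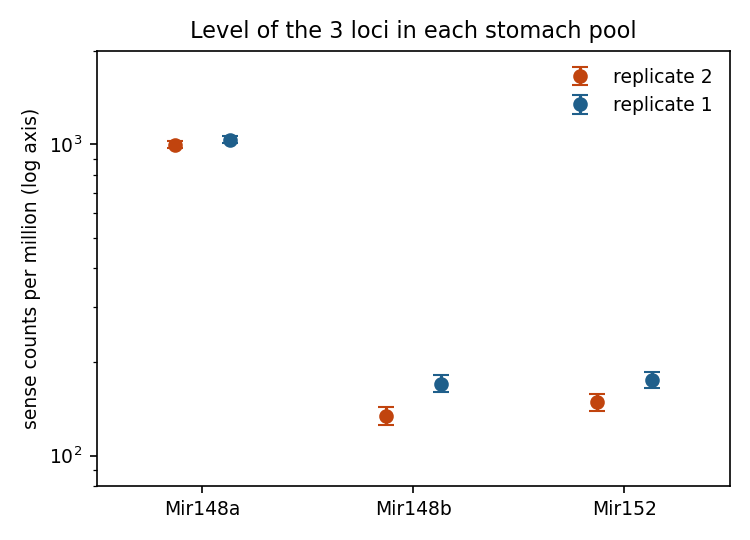
Sense CPM of Mir148a, Mir148b and Mir152 on a log axis, replicate 2 left and replicate 1 right in each pair; bars are 95% Wilson intervals of counting error. Mir148a sits near 1016 CPM in both pools, and Mir148b and Mir152 lie between 134 and 174 CPM with replicate 2 the lower.

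The order of the loci was Mir148a far ahead, then Mir152 and Mir148b close together. Mir148a exceeded Mir148b 7.46-fold in replicate 2 (95% exact interval 6.96 to 8.01) and 6.07-fold in replicate 1 (5.68 to 6.49), which is 2.74 ± 0.21 on the log2(CPM + 1) scale (SD, n = 2). It exceeded Mir152 6.73-fold in replicate 2 (6.30 to 7.20) and 5.93-fold in replicate 1 (5.55 to 6.33), or 2.65 ± 0.13. Both gaps were many times the spread between the pools. Neither that spread nor the intervals cover a difference in how well the sequence of each locus was captured, which was not tested. Mir152 exceeded Mir148b by 0.09 ± 0.08 on the log2 scale: 1.11-fold in replicate 2 (1.01 to 1.21) and 1.02-fold in replicate 1 (0.939 to 1.12). The interval in replicate 1 includes equality, and the log2 gap was little more than its own SD between the pools. The interval in replicate 2 lies above equality, and Mir152 was the higher locus in both pools. With 2 libraries the smallest p an exact permutation test can give is 0.5, so no p accompanies these gaps.

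Within the family, Mir148a held most of the counts. Its share was 78.0% in replicate 2 (77.1 to 78.8, 95% Wilson) against 75.0% in replicate 1 (74.1 to 75.9), a mean of 76.5% ± 2.10 (SD, n = 2). Mir152 held 11.6% in replicate 2 (10.9 to 12.3) and 12.7% in replicate 1 (12.0 to 13.4). Mir148b held 10.4% in replicate 2 (9.82 to 11.1) and 12.4% in replicate 1 (11.7 to 13.1). The Mir148a and Mir148b shares had intervals that did not overlap between the pools, while those of Mir152 did. The 3 shares are parts of a whole, so a shift in Mir148a alone would move the others. By counting error alone, 46.4% of the 466 tested genes differed between the pools (exact binomial test, adjusted p below 0.05, no fold limit). All 3 loci had 0 counts on the opposite strand in both libraries. The family held 0.128% of all sense counts in replicate 2 (0.125 to 0.131) and 0.138% in replicate 1 (0.135 to 0.141), a mean of 0.133% ± 0.00697.

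**Figure D3:**
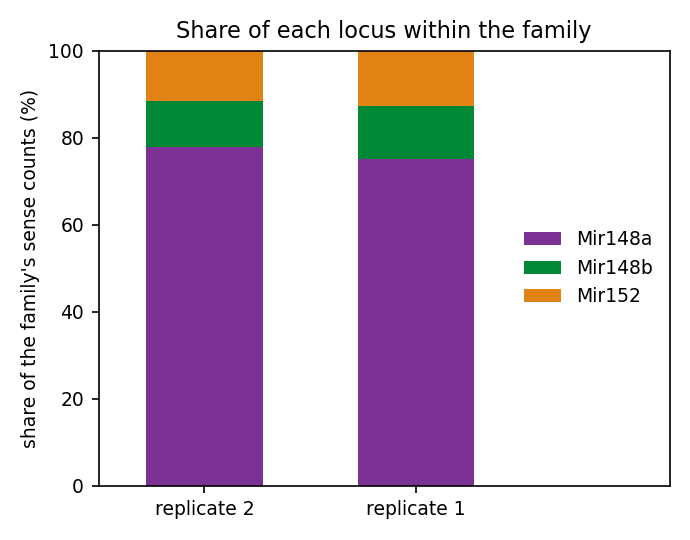
Share of the family's sense counts held by each locus, in percent, with replicate 2 left and replicate 1 right. Mir148a fills 78.0% of the replicate 2 bar and 75.0% of the replicate 1 bar, and Mir148b and Mir152 divide the rest almost evenly.

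Between the pools none of the loci reached a 2-fold difference. The log2 ratio of replicate 2 over replicate 1, on the log2(CPM + 1) scale, was -0.05 for Mir148a, -0.23 for Mir152 and -0.35 for Mir148b. Without the added 1 CPM the exact 95% intervals of the ratio were -0.10 to -0.00077 for Mir148a, -0.36 to -0.11 for Mir152 and -0.48 to -0.22 for Mir148b. The median of all tested genes was -0.11, and 295 of the 466 were lower in replicate 2. So Mir148a lay above that median and its relatives below it. In size, the Mir148a ratio exceeded that of 13.1% of tested genes, the Mir152 ratio that of 44.4% and the Mir148b ratio that of 62.2%.

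An exact binomial test of the counts, Benjamini-Hochberg adjusted over all genes and with a limit of 2-fold, called 0 of the 3 loci, beside a background of 5.79% of 466 genes. Those 27 genes divided into 3 higher (0.644%) and 24 lower (5.15%) in replicate 2, or 6 and 16 with DESeq2 size factors. With no fold limit 2 of the 3 loci passed, both lower in replicate 2, Mir148b (adjusted p of 4.88e-07) and Mir152 (adjusted p of 0.000736), against a background of 46.4%, or 33.3% in that direction, while Mir148a had an adjusted p of 0.0917 in the same exact test. All 3 had an unadjusted p under 0.05 in it, the largest being 0.0459 for Mir148a, as had 51.1% of all tested genes. edgeR's exact test, which takes the difference between the pools as spread, called 0 of 3 loci and 0.858% of all genes; at an unadjusted p under 0.05 it had 0 of 3 loci and 6.65% of all genes. The binomial test sets 1 library against the other on counting error alone and says nothing of conditions.

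The sign for Mir148a depends on the scaling. With edgeR's TMM factors the median of all genes became -0.01, and the log2 ratio was 0.078 for Mir148a, -0.11 for Mir152 and -0.22 for Mir148b. With DESeq2 size factors they were 0.11 for Mir148a, -0.08 for Mir152 and -0.19 for Mir148b. The order of the 3 ratios does not depend on scaling, since each scaling shifts all genes of a library alike. Which loci pass the exact binomial test with no fold limit depends on the scaling as well. Mir152 no longer passed, at an adjusted p of 0.178 with TMM and 0.362 with DESeq2 size factors. Mir148a then passed, higher in replicate 2, at an adjusted p of 0.00596 with TMM and 0.000108 with DESeq2 size factors. Mir148b passed, lower in replicate 2, at an adjusted p of 0.00251 with TMM and 0.0098 with DESeq2 size factors.

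**Figure D4:**
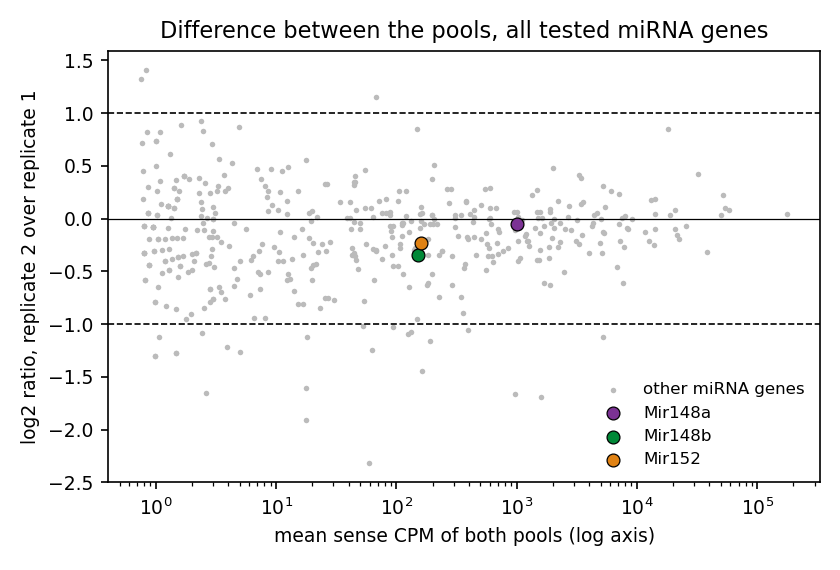
Log2 ratio of replicate 2 over replicate 1 against mean sense CPM (log axis) for the 466 tested miRNA genes, with the family's loci enlarged and the 2-fold limits dashed. The 3 loci lie inside the limits at -0.05, -0.23 and -0.35, within the band of genes of like level.

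The liver marker and the red cell markers differed between the pools more than the family did. Mir122, the main miRNA of hepatocytes, stood at 757 CPM in replicate 2 and 2445 CPM in replicate 1, a log2 ratio of -1.69. The red cell genes Mir144, Mir451a and Mir486 summed to 345 CPM in replicate 2 and 727 CPM in replicate 1. In the binomial test with the 2-fold limit 3 of 3 were called lower, beside 5.15% of all tested genes. Of the acinar pancreas genes 1 of 3 was, Mir216a, with 2 counts in replicate 2 and 11 in replicate 1. Mir148a, which adult liver also expresses, was at 998 CPM in replicate 2 and 1034 CPM in replicate 1. Of the white blood cell genes Mir223, Mir150 and Mir155, 0 of 3 were called with the 2-fold limit, beside 5.79% of all tested genes. Their log2 ratios were -0.17, -0.58 and -0.35, with sums of 1208 CPM in replicate 2 and 1374 CPM in replicate 1. Mir142, also on that list, was not analysed under its own name. In GENCODE M21 it overlaps Mir142b on the other strand. Reads opposite to Mir142b, looked up after the other values were seen and not in these sums, numbered 7087 in replicate 2 and 10569 in replicate 1, a log2 ratio of -0.73 when scaled to the sense totals. Whether they come from Mir142 was not tested. Whole tissue was measured, so fewer cells of a type and less RNA per cell cannot be told apart, and the part of these other cells in the Mir148b and Mir152 ratios was not tested.

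The genes most like each locus, by distance between their pairs of log2(CPM + 1) values over the 2 libraries, lay close to it. Nearest to Mir148a were Mir433 of the imprinted Dlk1-Dio3 region at a distance of 0.05 (1036 CPM in replicate 2 and 1028 CPM in replicate 1), Mir1983 at 0.08 and Mir301 at 0.11. Nearest to Mir148b were Mir500 at 0.12 (129 CPM in replicate 2 and 158 CPM in replicate 1), Mir152 at 0.15 and Mir675, which is cut from the H19 transcript, at 0.17. Nearest to Mir152 were Mir330 at 0.11 (151 CPM in replicate 2 and 162 CPM in replicate 1), Mirlet7c-1 at 0.15 and Mir148b at 0.15. Mir148b and Mir152 were thus each among the 3 nearest genes of the other. Over 2 libraries this measure is little more than likeness in level.

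Among gut epithelial miRNAs Mir148a stood at an intermediate level in these counts. Of the 5 genes Mir192, Mir194-1, Mir194-2, Mir215 and Mir375, linked to glandular and endocrine gut epithelium, Mir375 was far above it at 18048 ± 7315 CPM, and Mir215 at 2024 ± 474 CPM and Mir192 at 1507 ± 5.24 CPM were above it too. Mir194-2 at 704 ± 33.9 CPM and Mir194-1 at 284 ± 39.4 CPM were below (SD, n = 2). Mir194-1 and Mir194-2 are numbered copies, and reads matching several places were assigned to no gene. What such reads would add to them was not tested, so their place below Mir148a holds for the assigned counts only. Of the 5 genes, 0 were called with the 2-fold limit, beside 5.79% of all tested genes. Their log2 ratios between the pools had a median of 0.28 and spanned -0.10 for Mir194-2 to 0.85 for Mir375, beside -0.05 for Mir148a.

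The seed of the family also occurs, shifted by 1 base, at the start of the miR-130 and miR-301 relatives. These are shown with that run of 7 bases in capitals, because in them it begins at base 1 and not at base 2:
miR-130a-3p: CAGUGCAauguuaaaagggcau
miR-130b-3p: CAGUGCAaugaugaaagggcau
miR-301a-3p: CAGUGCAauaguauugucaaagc
The run of 7 bases, CAGUGCA, was searched as written on the mature strand in all 1738 mature sequences and found in 17 of them, or 0.978%. It stood at bases 2 to 8 in the 3 members of the family and in no other, and at base 1 in 7. A match of letters is a description and not a binding site.

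Genes with the shifted run summed to a far higher level than the family, through Mir130a and Mir130b. Mir130a stood at 22209 ± 2080 CPM, Mir130b at 4645 ± 119 CPM and Mir301 at 970 ± 52.8 CPM (SD, n = 2), while Mir130c, Mir6341 and Mir6389 had 0 counts in both libraries. Together the 6 listed genes came to 26400 CPM in replicate 2 and 29247 CPM in replicate 1, which was 20.6-fold (replicate 2) and 21.2-fold (replicate 1) the sum of Mir148a, Mir148b and Mir152. Mir301, nearest of these to Mir148a in level, is named on both counts. Mir301b, also of the miR-301 group, stood at 61.6 ± 3.09 CPM. It is not in that sum, because the search did not return it. Whether its mature sequence was among those searched was not checked, so this does not show that it lacks the run. Of Mir130a, Mir130b, Mir301 and Mir301b, 0 of 4 were called between the pools with the 2-fold limit, beside 5.79% of all tested genes.

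The same run of 7 bases lies further inside the mature sequence of other genes, outside their seed or overlapping it in part. It starts at base 4 in miR-449c-5p, base 5 in miR-139-5p, base 8 in miR-141-5p and base 12 in miR-17-5p, miR-106a-5p, miR-106b-5p and miR-33-3p. Of these genes Mir17, of the proliferation-linked miR-17-92 cluster, was highest at 21613 ± 1665 CPM (SD, n = 2), followed by Mir106b at 4917 ± 565 CPM, Mir139 at 2217 ± 180 CPM and Mir141 at 1916 ± 37.1 CPM. Mir106a at 184 ± 17.5 CPM was close to Mir152 and Mir148b in level. Mir33 stood at 53.9 ± 20.6 CPM, and Mir449c had 0 counts in replicate 2 and 4 in replicate 1. For none of these genes could the arm that holds the run be told from the other arm in these counts.

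**Figure D5:**
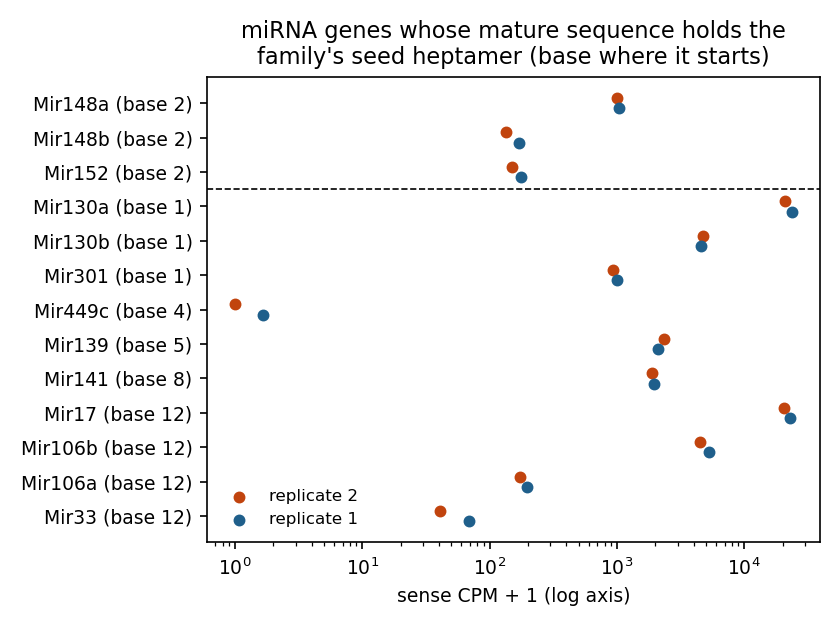
Sense CPM + 1 (log axis) of listed genes with counts whose mature sequence holds the family's seed run, with the base where it starts in brackets; red is replicate 2 and blue replicate 1. The 3 family loci above the dashed line lie between 134 and 1034 CPM, below Mir130a and Mir17, which averaged 22209 and 21613 CPM.

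Other families with members inside paralogous host introns were more uneven in these counts, which leave out reads matching several places. In the miR-26 family, from introns of Ctdsp genes, Mir26b held 99.8% of the counts, with Mir26a-1 at 10.6 ± 1.82 CPM and Mir26a-2 at 44.9 ± 8.02 CPM. In the miR-103 and miR-107 family, from introns of Pank genes, Mir107 held 95.8%, with Mir103-2 at 44.1 ± 7.29 CPM and Mir103-1 at 2.87 ± 0.667 CPM (SD, n = 2). Both families hold numbered copies of one mature miRNA. Reads matching several places, 27.0% of reads in replicate 2 and 25.5% in replicate 1, are a line of their own in the deposited tables. What they would add to these copies was not tested, so uneven levels and uncounted reads cannot be told apart. Of the genes of each family 0 of 3 were called between the pools with the 2-fold limit, beside 5.79% of all tested genes. No such copy was found for the 3 loci of the miR-148 and miR-152 family. None of their 6 mature sequences was found whole in a transcript of any other gene among 141767 GENCODE transcripts. Intergenic sequence and introns removed by splicing were not searched.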

How the data were processed

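Small RNA of 2 stomach pools was measured. The authors deposited raw counts of reads per miRNA gene, separately for each library, on mm10 with GENCODE M4, per the deposited description files; the sources used here name no aligner, trimming step or counter. Of the 3 counts in a row the first is the sum of the others, and the second, read as the sense strand, was analysed. Lines naming no gene stayed out of totals: multi-mapping reads were 27.0% in replicate 2 and 25.5% in replicate 1, unmapped 16.2% and 18.0%, outside miRNA genes 2.26% and 2.92%, and opposite-strand 1.69% and 1.81%. Symbols and coordinates came from GENCODE M21 by gene identifier (1894 of 1973 matched), sequences from RefSeq GRCm38.p6 (3 of 3 loci matched).

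CPM are counts per 1000000 summed sense counts. Genes with at least 10 summed counts entered a conditional binomial test (exact, two-sided, Benjamini-Hochberg adjusted); a call needed an adjusted p below 0.05 with a 2-fold ratio of log2(CPM + 1). Shares carry Wilson intervals and ratios Clopper-Pearson intervals, at 95%; a count of 0 allows 3 counts. edgeR's quasi-likelihood test has no contrast in 1 group; its exact test used the common dispersion of an intercept-only design (coefficient of variation 0.201). The labels call the pools biological replicates. The binomial and edgeR steps were tested on simulated data. Named were the 3 loci, the 3 genes nearest to each in level, genes whose mature sequence holds their seed, and fixed lists. Members and lists were chosen with earlier results of these data known. The Mir124 genes are named Mir124a in GENCODE M21. Of the listed markers, Mir9-1 and Mir142 were not analysed under their own names. Alternatives covered leaving out each replicate, scaling, total, count minimum, pseudocount, fold limit, strand and test. Tools were edgeR 4.0.16, DESeq2 1.42.0 and R 4.3.3, ViennaRNA 2.7.2, and Python 3.11.15 with scipy 1.17.1, numpy 2.4.6, matplotlib 3.10.9 and pandas 2.3.3.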

Additional observations from a re-analysis of the deposited data

Results flagged for a closer look

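Opposite-strand counts, which no comparison uses, exceeded 3 in both libraries at 4 of the genes named. Mir142b, which overlaps the white blood cell gene Mir142 on the other strand and was looked up after the other values were seen, had 7087 in replicate 2 and 10569 in replicate 1. Mir126a had 40 in replicate 2 and 22 in replicate 1, Mir203 had 63 in replicate 2 and 28 in replicate 1, and Mir486 had 8 in replicate 2 and 12 in replicate 1. Mir148a, Mir148b and Mir152 had none.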

How the results depend on the processing

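Each locus kept its level within the SD between the pools under TMM and DESeq2 scaling. Those scalings shift the pools in opposite directions, so by construction a mean over both hardly moves. With both strands in the total Mir148a came to 983 CPM, just past that SD. Scaled to all reads the levels were 532 for Mir148a, 79.5 for Mir148b and 84.4 for Mir152, since the total is larger by construction. The family share became 0.162% without Mir143 in the total and 0.0696% of all reads. Gaps between loci stayed within their SD under the pseudocounts and strand choice run. The strand choice could hardly move these gaps, since no locus had opposite-strand counts. Without either replicate, where the value is simply that of the other library, they ranged 2.60 to 2.89 for Mir148a over Mir148b, 2.56 to 2.74 for Mir148a over Mir152 and 0.03 to 0.15 for Mir152 over Mir148b. The log2 ratio of Mir148a between the pools reversed to 0.078 with TMM, 0.11 with DESeq2 size factors and 0.078 in edgeR's exact test. With library totals and no fold limit Mir148b (-0.35) and Mir152 (-0.23) passed the binomial test; with TMM or DESeq2 size factors Mir148b and Mir148a passed, Mir148a in the other direction, and Mir152 did not. Against 27 calls over all genes there were 13 with pseudocount 5, 16 at a minimum of 100 summed counts, 4 in edgeR's exact test and 216 when the fold limit was dropped; the range elsewhere was 22 to 31. No paired analysis was possible because both pools belong to 1 group. The loci had 893 counts or more each, so depth limited them little; Mir449c, at 4 counts in all, was too shallow for a difference to be detectable.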
